A study of Mus musculus with 2 samples.

Results

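Kinesins, dyneins and tubulins are the motors and tracks of the microtubule system. The genes described here were the protein-coding rows of the deposited table whose symbols begin with the family names of the kinesins (Kif, Kifc), kinesin light chains (Klc), tubulins (Tuba, Tubb, Tubg, Tubd, Tube), cytoplasmic dynein subunits (Dync, Dynl) or stathmins (Stmn). This rule gave 86 of the 54532 genes in the table, and it used no measured value. Messenger RNA had been sequenced from cultures of CMT167R cells, a mouse lung carcinoma line that the labels describe as resistant to anti-PD1, an antibody against an inhibitory receptor of T cells. One group was untreated (CON, 1 library) and the other had been given 50 nM of a compound labelled PKCi for 24 h (1 library). Which compound PKCi stands for is not said in the labels, and the resistant state is shared by both groups.

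Tubulin is a dimer of an alpha and a beta chain that polymerises into hollow microtubules, and several genes encode each chain. Kinesins are motors that mostly walk towards the plus ends of microtubules, while cytoplasmic dynein walks towards the minus ends. One set of kinesins is made mainly in dividing cells, where it builds the spindle, moves chromosomes and completes cytokinesis. Another set carries vesicles, organelles and ciliary cargo in cells at any stage.

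Gene counts summed to 16090186 in CON and 16071153 in PKCi. Levels are given in CPM, counts scaled to a common library total, where 1 CPM stood for 16.1 counts. Of the 86 genes, 63 reached 1 CPM in at least 1 library and are called measured. The other 23 had at most 11 counts, and 14 of them had 0 in both libraries, which allows up to 0.187 CPM (from 3 counts). As each group held 1 library, there was no replicate check and no test, so each 95% interval of a fold covers counting error only. A fold is the plain ratio of CPM, and a gene was counted as at least 2-fold apart on the log2((PKCi + 1)/(CON + 1)) scale in CPM. The labelled cell type was checked with markers: the epithelial keratin genes Krt8 (933 and 1182 CPM) and Krt18 (643 and 765 CPM) were abundant. Krt19, of the same list of 7 and named after its values were seen, was at 59.7 and 71.1 CPM. The members other than keratins were low: Epcam was at 3.48 and 6.28 CPM and Cldn7 at 6.53 and 7.40 CPM. Cdh1 and Cldn4 stayed under 5 CPM in both libraries, so the list as a whole does not settle an epithelial identity. The lung markers Nkx2-1, Sftpc, Sftpb, Sftpa1, Scgb1a1 and Hopx were at 0 in both libraries. One protocol in the labels speaks of retinas, and the 10 neuron and retina markers summed to 0.249 CPM in CON and 0.436 CPM in PKCi, with Crx and Rcvrn at 0 in both.

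Mitotic kinesins were lower and most transport kinesins higher in the PKCi library, while the tubulin genes split, with Tuba1b lower and Tuba1a, Tubb2a and Tubb2b higher. Of the 63 measured genes 7 (11.1%) were at least 2-fold higher, against 6.46% of the 10943 measured protein-coding genes. Those 7 were Tubb2a, Tubb2b, Tuba1a, Dync2h1, Klc4, Kif17 and Kifc2, of which Kif17 and Kifc2 reached 1 CPM only in the PKCi library and so had to be higher there. At least 2-fold lower were 3 (4.76%), against 5.36% of protein-coding genes, a share near the background. They were Tuba1b, Kif11 and Kif20a. The median log2 ratio of the 63 was −0.26, and that of all measured protein-coding genes was −0.02, with quartiles at −0.41 and 0.37.

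The 13 genes of the mitotic kinesin list all reached 1 CPM in both libraries, and all 13 had a log2 ratio below 0, where 51.5% of measured protein-coding genes did. Of the 13, 9 were at least 1.5-fold lower, against 17% of protein-coding genes, and 2 at least 2-fold lower. Their median log2 ratio was −0.74, within a range of −1.06 to −0.36. Kif11, the motor that slides antiparallel microtubules to push the spindle poles apart, had a level of 175 CPM in CON against 83.8 CPM in PKCi (2.09-fold lower, 95% interval 1.96 to 2.24). On the mouse build GRCm38 its gene (ENSMUSG00000012443) lies on the plus strand of chromosome 19, 37376403 to 37421859. Kif15, which can share the spindle task of Kif11, was at 59.4 and 30.8 CPM (1.93-fold lower, 95% interval 1.73 to 2.15). The ratio of Kif15 to Kif11 counts, which does not depend on library scaling, was 0.338 in CON against 0.368 in PKCi, a change of 1.09 times whose interval (0.958 to 1.23) includes 1.

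Motors of cytokinesis differed in size. Kif20a, which brings the chromosomal passenger complex to the central spindle, was at 156 and 74.8 CPM (2.09-fold lower, 95% interval 1.95 to 2.24). Kif14, another cytokinesis motor, was at 63.3 and 32.5 CPM (1.95-fold lower) and Kif20b at 91.8 and 51.1 CPM (1.80-fold lower). Kif23, the motor of the centralspindlin complex, was at 138 and 101 CPM and only 1.37-fold lower (95% interval 1.29 to 1.47). The Kif20a to Kif23 count ratio was 1.13 in CON against 0.742 in PKCi, 1.52-fold lower (95% interval 1.38 to 1.67), so these partners of late mitosis did not differ to the same extent. Exons of Kif20a overlap those of Cdc23 on the opposite strand over 29.3% of their bases, and the strand setting of the counting is not given in the sources used here. Cdc23 had 944 and 615 counts, against 2514 and 1202 for Kif20a.

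Chromosome-arm motors and depolymerising kinesins made up most of the rest. Kif22, a chromokinesin that pushes chromosome arms outward, was at 120 and 61.2 CPM (1.97-fold lower). Kif4, another chromokinesin that also limits the length of the central spindle, was at 114 and 88.9 CPM and was the least different of the 13 (1.28-fold lower, 95% interval 1.20 to 1.38). Kif18a, which damps chromosome movements at the metaphase plate, was at 38.9 and 22.9 CPM, and its relative Kif18b at 93.7 and 69.4 CPM. The microtubule depolymeriser Kif2c was at 107 and 70.9 CPM (1.5-fold lower). Kifc1, a minus-end motor that clusters spindle poles, was at 113 and 68.1 CPM and its near-identical copy Kifc5b at 33.6 and 21.3 CPM. Their summed counts were 1.64-fold lower (95% interval 1.54 to 1.76), a value that does not depend on how reads were split between them. Per length, in TPM (counts divided by the listed gene lengths and scaled to a common total), Kif20a (134 TPM), Kif11 (118 TPM) and Kifc1 (108 TPM) led the mitotic kinesins untreated. With PKCi the leading values lay close together, at 65.3 TPM for Kifc1, 64.4 TPM for Kif20a and 63.5 TPM for Kif18b.

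Genes of the spindle partners and of proliferation stood lower beside them. All 18 listed spindle partners of mitotic motors were measured and below 0, and 5 were at least 2-fold lower, against 51.5% and 5.36% of protein-coding genes (median log2 ratio −0.74). The guanine nucleotide exchange factor gene Ect2, which starts the cleavage furrow, was at 320 and 131 CPM, the spindle assembly gene Hmmr at 206 and 84.3 CPM and the kinetochore gene Nuf2 at 124 and 53.3 CPM. All 12 proliferation markers were below 0 as well, and 7 were at least 2-fold lower (median −1.02). In bulk RNA, fewer cells in division and less of these messages per dividing cell cannot be told apart, and the part of proliferation in the kinesin values was not tested. Against Mki67, a proliferation marker gene, the count ratio of Kif4 differed by 1.04 times (95% interval 0.959 to 1.12) and that of Kif23 by 0.969 times (95% interval 0.901 to 1.04), intervals that include 1. The count ratio of Kif11 to Mki67 was 1.57-fold lower with PKCi (95% interval 1.46 to 1.69), and that of Kif20a 1.57-fold lower (95% interval 1.45 to 1.70). These ratios turn on the marker chosen: Mki67 (log2 ratio −0.41) stood nearest 0 of the 12 markers, and Ccna2 (−1.60) farthest, below every mitotic kinesin.

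Of the 17 listed transport kinesins 14 were measured, 10 above 0, as were 48.5% of measured protein-coding genes, and 4 below. Their median log2 ratio was 0.46, or 0.43 with no filter on low values. Without Kif17 and Kifc2, which reached 1 CPM only with PKCi, 8 of 12 were above 0 and the median was 0.41. Of those 12, 2 (Kif3a and Kif3c) were at least 1.5-fold higher, near the 16.2% of protein-coding genes. Kif1c, a vesicle motor, had the highest level per length of all kinesins in both libraries (144 and 208 TPM) and was at 323 and 463 CPM (1.44-fold higher, 95% interval 1.38 to 1.49). Its gene (ENSMUSG00000020821) lies on the plus strand of chromosome 11, 70700548 to 70731964. Kif5b, the heavy chain of kinesin-1, was at 251 and 278 CPM (1.11-fold higher, 95% interval 1.06 to 1.16), and its neuronal relatives Kif5a and Kif5c had at most 7 counts. Kif1b, which carries mitochondria and vesicles, was at 104 and 141 CPM.

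The kinesin-2 genes, whose motors move cargo along cilia and the cytoplasm, were all higher in the PKCi library. Kif3a was at 34.1 and 55.4 CPM (1.62-fold higher, 95% interval 1.46 to 1.81), Kif3b at 54.4 and 71.7 CPM (1.32-fold higher) and Kif3c at 17.0 and 27.4 CPM (1.61-fold higher). Kif17, which works as a homodimer, had 11 and 39 counts (3.55-fold higher, 95% interval 1.78 to 7.68). Its exons share 74 bases with those of Sh2d5 on the same strand, which had 633 and 3043 counts, and the part of that overlap was not tested. Exons of Kif3c overlap those of a gene on the opposite strand over 35.3% of their bases, and that gene, 1110002L01Rik, had 69 and 91 counts. Kif13b, a motor that binds the scaffold protein Dlg1, was 1.51-fold higher at 23.6 and 35.7 CPM, while Kif13a, an endosome motor, was at 70.4 and 67.3 CPM, with an interval for its fold that includes 1 (0.961 to 1.14).

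Lower members were fewer among the transport kinesins. Kifc3, a minus-end motor known at epithelial adherens junctions, was at 14.7 and 7.09 CPM (2.07-fold lower, 95% interval 1.65 to 2.61), just short of 2-fold on the log2 scale at −0.95. The early endosome motor Kif16b was at 46.9 and 36.1 CPM, and Kif21a, which restrains microtubule growth, at 52.5 and 43.1 CPM. Kif21b, its relative, went the other way at 19.5 and 27.5 CPM. Kifc2, a minus-end motor first described in neurons, had 6 counts untreated and 75 with PKCi (12.5-fold higher, 95% interval 5.49 to 35.2).

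**Figure D1:**
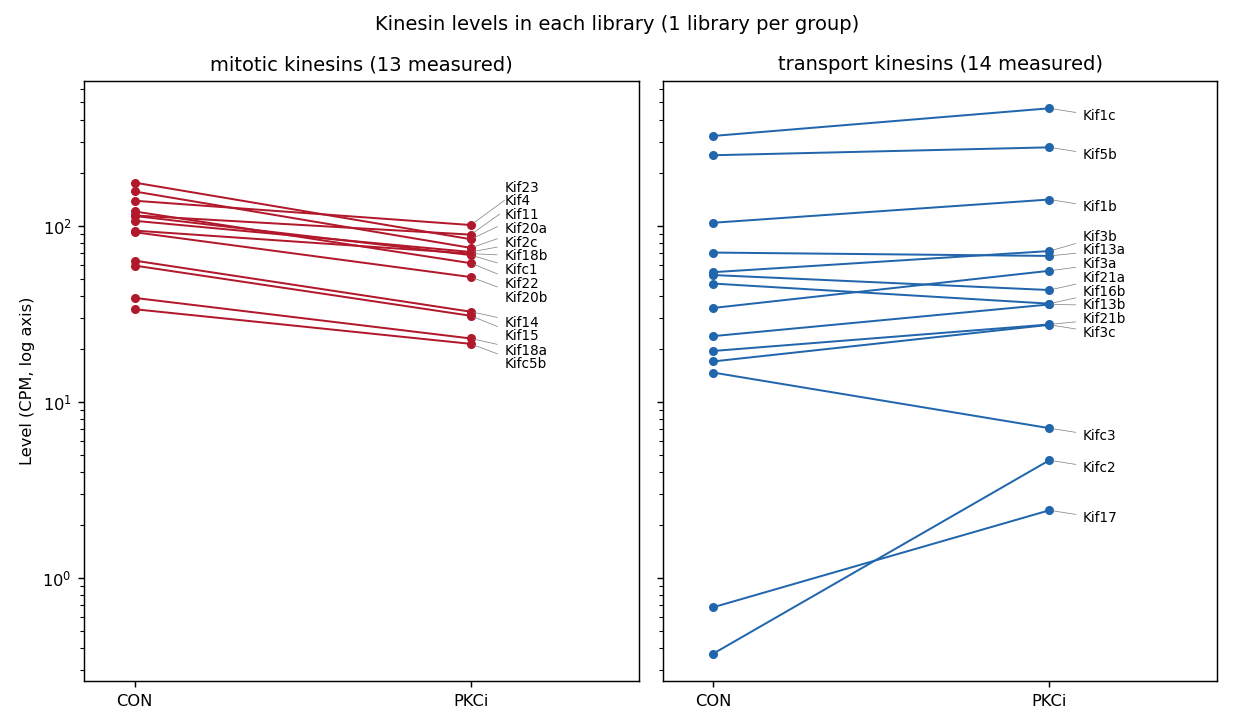
Levels of the 13 mitotic kinesins (left) and the 14 measured transport kinesins (right) in CPM on a log axis, with a line joining the untreated (CON) and PKCi library for each gene; there is 1 library per group and no error bar. All 13 mitotic kinesins slope down, while 10 of 14 transport kinesins slope up, from Kif5b at 1.11-fold to Kifc2 at 12.5-fold. Kif17 and Kifc2 reached 1 CPM only in the PKCi library and so had to slope up.

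Set against each other, the mitotic median was 1.20 lower than the transport median on the log2 scale (a difference of −1.20). Of the 14 transport kinesins 12 had a log2 ratio above that of Kif4, the highest among the mitotic kinesins (−0.36), and Kifc3 (−0.95) and Kif16b (−0.37) lay below it. The 12 include Kif17 and Kifc2, which reached 1 CPM only with PKCi and so had to be higher there. A filter of 5 CPM, which left them out, gave a transport median of 0.41 and a difference of −1.15. The 13 mitotic genes summed to 1305 CPM in CON and 776 CPM in PKCi (1.68-fold lower, 95% interval 1.64 to 1.72), and the transport genes to 1012 and 1261 CPM (1.25-fold higher, 95% interval 1.22 to 1.27). The count ratio of mitotic to transport kinesins was 1.29 in CON against 0.616 in PKCi, 2.10-fold lower (95% interval 2.03 to 2.16) whatever the library scaling. Per length, the mitotic genes summed to 863 and 516 TPM and the transport genes to 436 and 550 TPM. The order of these lists was thus reversed between the libraries. Cenpe, a mitotic kinesin whose symbol the rule does not cover, is counted among the spindle partners instead. Named after its values were seen, it was at 79.1 and 53.9 TPM. Its TPM with PKCi exceeds the gap between the TPM sums, so per length the order would not be reversed with Cenpe included. In CPM, where Cenpe was at 210 and 142, the order of the sums would still be reversed with it.

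Promoter sequences of the kinesins are shown because the mitotic members were lower together. Many genes of late cell cycle carry a cell cycle genes homology region (CHR) near their start, often with a CCAAT box upstream, known mainly from human and mouse promoters. RefSeq promoter windows (build GRCm38.p6, 250 bases before to 50 after each start, 1 window per gene) were matched by symbol for 64 of the 86 genes, among them 12 mitotic kinesins (not Kif20a) and 11 transport kinesins. The letters searched on both strands were TTTGAA for CHR and CCAAT for the CCAAT box, and no match of one overlapped a match of the other in the kinesin windows. CHR letters stood in 11 of the 12 mitotic kinesin windows and in 0 of the 11 transport kinesin windows, where 15.6% of the 16492 protein-coding windows held them. CCAAT letters stood in 8 and 3 windows, against 38.8% of all. The share of windows with both was 66.7% for the mitotic kinesins and 6.41% for all genes.

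Stretches of 120 bases are printed below from 90 before the RefSeq start on, with the bases that match CHR or CCAAT on either strand in capitals. The mitotic kinesins Kif11 at chr19:37376292-37376411 (plus strand), Kif22 at chr7:127042391-127042510 (minus strand) and Kif15 at chr9:122950991-122951110 (plus strand) held CHR letters that begin 19, 17 and 19 bases before the start. Kif18b at chr11:102925095-102925214 (minus strand), Kif23 at chr9:61946770-61946889 (minus strand) and Kif4 at chrX:100625975-100626094 (plus strand) held them from 3, 2 and 19 bases after it.
Kif11: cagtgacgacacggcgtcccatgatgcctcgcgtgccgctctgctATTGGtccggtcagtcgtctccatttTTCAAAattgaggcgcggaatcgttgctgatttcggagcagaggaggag
Kif22: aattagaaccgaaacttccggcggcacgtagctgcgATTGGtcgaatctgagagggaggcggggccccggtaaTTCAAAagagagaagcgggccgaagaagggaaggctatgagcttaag
Kif15: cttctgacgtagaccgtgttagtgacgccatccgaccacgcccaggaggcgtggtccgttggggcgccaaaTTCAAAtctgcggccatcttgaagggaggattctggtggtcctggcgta
Kif18b: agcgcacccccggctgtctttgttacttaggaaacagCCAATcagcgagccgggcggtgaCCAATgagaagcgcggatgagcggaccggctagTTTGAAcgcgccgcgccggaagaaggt
Kif23: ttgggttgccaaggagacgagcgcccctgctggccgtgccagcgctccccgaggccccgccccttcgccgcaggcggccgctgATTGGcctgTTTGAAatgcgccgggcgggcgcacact
Kif4: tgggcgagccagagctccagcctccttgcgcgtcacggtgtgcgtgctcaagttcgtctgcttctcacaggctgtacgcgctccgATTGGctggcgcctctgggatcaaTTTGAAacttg

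The same stretches of the transport kinesins Kif1c at chr11:70700458-70700577 (plus strand), Kif3a at chr11:53567279-53567398 (plus strand) and Kif3b at chr2:153291326-153291445 (plus strand) are given for contrast. They held no CHR letters, and Kif3a and Kif3b each held a CCAAT match.
Kif1c: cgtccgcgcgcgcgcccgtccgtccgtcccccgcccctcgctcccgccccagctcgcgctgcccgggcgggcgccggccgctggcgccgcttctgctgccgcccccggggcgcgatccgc
Kif3a: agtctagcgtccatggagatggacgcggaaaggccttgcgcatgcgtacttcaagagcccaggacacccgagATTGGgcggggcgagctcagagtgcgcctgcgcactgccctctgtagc
Kif3b: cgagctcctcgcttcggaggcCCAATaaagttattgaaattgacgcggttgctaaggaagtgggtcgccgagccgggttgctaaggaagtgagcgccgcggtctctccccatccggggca

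**Figure D2:**
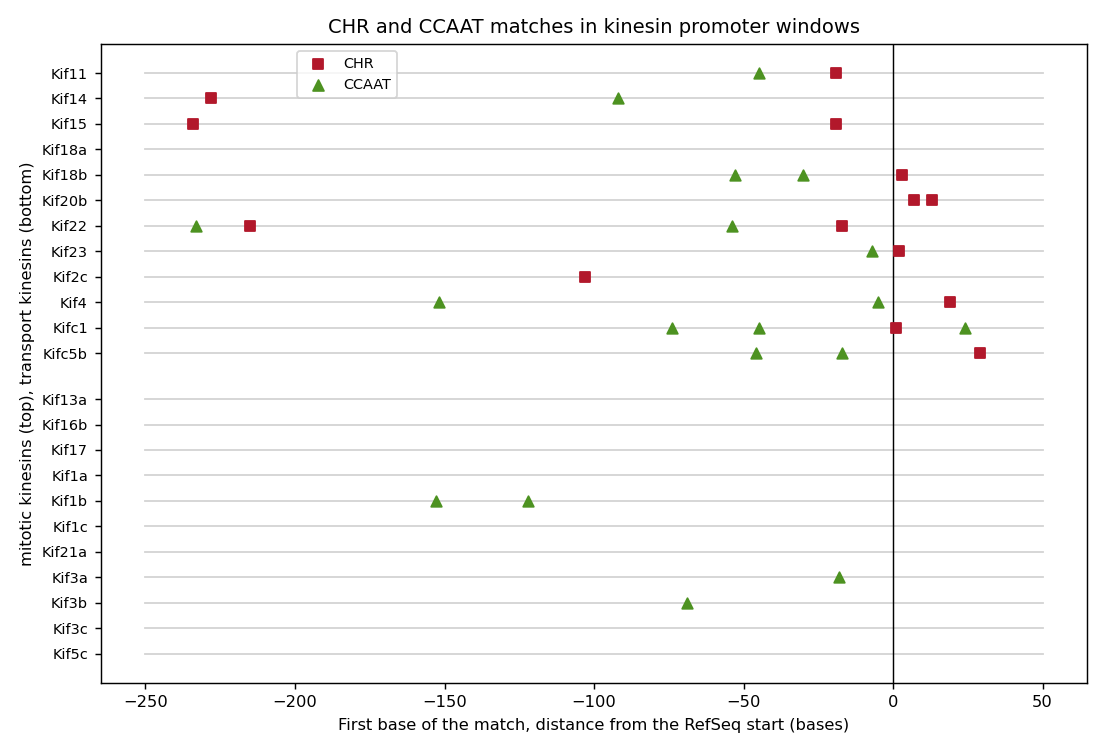
Position of the first base of each CHR match (squares) and CCAAT match (triangles) relative to the RefSeq start, in bases, for 12 mitotic kinesins (top) and 11 transport kinesins (bottom); grey lines mark the window searched. In 9 mitotic kinesins a CHR match begins within 30 bases of the start, and no transport kinesin window holds one.

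A CHR match began within 30 bases of the start in 9 of the 12 mitotic windows, against 2.44% of all windows, a distance chosen after the positions were seen. Kifc1 and Kifc5b are close relatives whose promoter windows share long identical stretches, and they are not independent in this count. The window of Kif18a held neither motif, although Kif18a was 1.70-fold lower. The windows of Kif14 and Kif2c lay 1505 and 3867 bases from the start listed in the deposited table, and that of the transport kinesin Kif17 lay 11816 bases away. Kif11 and Kif4, both with CHR letters, were 2.09-fold and 1.28-fold lower, so a match did not go with 1 size of difference. Over all measured genes, the 1007 with a CHR match anywhere in the window had a median log2 ratio of −0.18 and the 7671 with none −0.01. For the 169 with a match within 30 bases of the start, the distance chosen afterwards, it was −0.50. Those 169 still hold the mitotic kinesins whose positions led to that distance, so the value is no independent check. These letters are a description of the windows and do not show that a factor was bound.

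The kinesin light chains, which couple kinesin-1 to cargo, were all above 0, as were 48.5% of measured protein-coding genes. Klc4 was at 9.88 and 24.3 CPM (2.46-fold higher, 95% interval 2.04 to 2.98) and Klc3 at 8.45 and 14.9 CPM (1.77-fold higher, 95% interval 1.43 to 2.20). Klc1, the highest per length, was at 130 and 144 CPM and Klc2 at 45.5 and 48.9 CPM, with an interval for Klc2 that includes 1 (0.971 to 1.19). The Kif5b to Klc1 count ratio was 1.93 and 1.94 (a change of 1.00 times, 95% interval 0.933 to 1.08), while the Klc4 to Klc1 ratio was 2.23-fold higher with PKCi (95% interval 1.84 to 2.70). The exons of Klc3 overlap Ercc2 on the opposite strand over 28.1% of their bases.

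Among the other kinesins 5 of 12 were measured and 4 of these were below 0, as were 51.5% of measured protein-coding genes. Kif26b, a kinesin-like gene, was at 14.4 and 8.34 CPM (1.73-fold lower), and Kif7, a ciliary regulator of Hedgehog signalling, at 13.0 and 8.59 CPM. Kif24, a centriolar kinesin that limits cilium formation, was at 15.4 and 11.2 CPM, and the depolymeriser Kif2a at 79.9 and 66.5 CPM. Kif9, a motor of motile cilia, had 26 and 64 counts (2.46-fold higher, 95% interval 1.54 to 4.05). Of 9 listed motile cilia markers 7 were in the table, 2 of them (Rsph1 and Tekt1) at 0, and they summed to 2.67 and 3.17 CPM. The kinesin-binding protein gene Kif1bp was at 34.6 and 28.7 CPM. The kinesins Kif2b, Kif6, Kif12, Kif19a, Kif26a, Kif27 and Kif1a had 0 counts in both libraries, and Kif28 had 1.

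Alpha-tubulin genes lay on both sides of 0, and the share of each isotype differed between the libraries. Tuba1b, the alpha isotype with the highest level per length in both libraries, stood at 1628 CPM in CON against 768 CPM in PKCi (2.12-fold lower, 95% interval 2.07 to 2.17). Tuba1a, known as the main isotype of neurons, was at 232 and 540 CPM (2.33-fold higher, 95% interval 2.24 to 2.42). Tuba1c was at 582 and 609 CPM (1.05-fold higher), and Tuba4a, whose chain lacks the encoded end tyrosine of other isotypes, at 418 and 327 CPM (1.28-fold lower). Tuba1b (98931425 to 98934565, minus strand, ENSMUSG00000023004), Tuba1a (98949837 to 98953703, minus strand) and Tuba1c (99029891 to 99038110, plus strand) lie near each other on chromosome 15. The Tuba1a to Tuba1b count ratio was 0.143 in CON against 0.704 in PKCi, 4.93-fold higher (95% interval 4.72 to 5.15). Per length, Tuba1b made up 63.6% of alpha-tubulin untreated and 38.5% with PKCi, Tuba1a 9.44% and 28.2%, and Tuba1c 18.7% and 25%. The exons of Tuba4a overlap Stk16 on the opposite strand over 37.3% of their bases.

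These genes share sequence. Of the windows of 150 bases in their longest coding transcripts, 57.9% (Tuba1b), 54.7% (Tuba1a) and 46.7% (Tuba1c) also occur in a transcript of another gene, so a read could be placed in more than 1 of them. The summed counts of the 3 genes, which do not depend on how reads were split among them, were 1.27-fold lower with PKCi (95% interval 1.25 to 1.29), from 2442 to 1918 CPM. Other annotated genes share such windows too, so reads could also fall outside this sum. Among them Gm49450, with 42 and 57 counts, overlaps exons of Tuba1a (26.2% of their bases) and Tuba1b (22.7%) on the same strand. How reads in that overlap were counted is not given in the sources used here, and read placement was not tested.

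Beta-tubulin genes also lay on both sides of 0. Tubb5, the highest per length, was at 1698 and 1361 CPM (1.25-fold lower, 95% interval 1.23 to 1.27), Tubb4b at 686 and 403 CPM (1.70-fold lower, 95% interval 1.65 to 1.76), with 16.8% of its windows of 150 bases shared with a pseudogene, and Tubb6 at 427 and 278 CPM (1.54-fold lower, 95% interval 1.48 to 1.60). Tubb2a was at 75.3 and 260 CPM (3.45-fold higher, 95% interval 3.24 to 3.68) and Tubb2b at 36.3 and 97.7 CPM (2.69-fold higher, 95% interval 2.45 to 2.96). Both encode isotypes known from brain and lie near each other on chromosome 13, from 34074274 to 34078007 and from 34126748 to 34130466 on the minus strand. Of the windows of 150 bases, 27.9% in Tubb2a and 20.1% in Tubb2b occur in another gene, but their summed counts were likewise 3.20-fold higher (95% interval 3.04 to 3.38). Per length, Tubb2a made up 4.09% of beta-tubulin untreated and 16.7% with PKCi, and Tubb5 44.6% and 42.4%. The Tubb2a to Tubb5 count ratio was 4.31-fold higher with PKCi (95% interval 4.03 to 4.60), and the Tubb4b to Tubb5 ratio 1.37-fold lower (95% interval 1.32 to 1.42). The neuronal isotype Tubb3 and the platelet isotype Tubb1 had 0 counts in both libraries, and Tubb4a had 0 and 5.

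**Figure D3:**
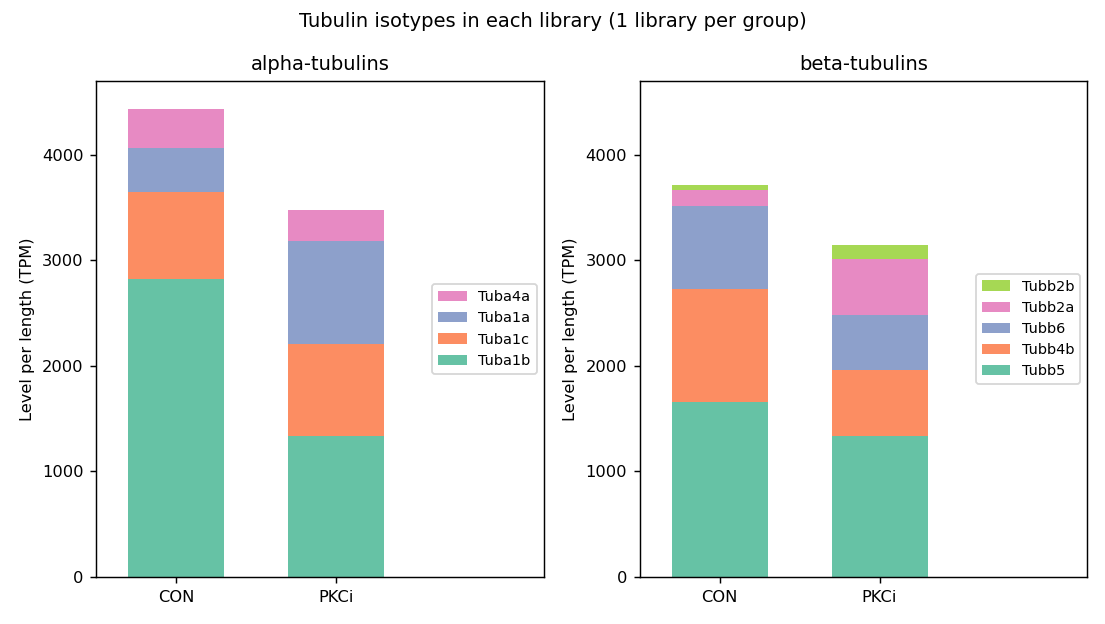
Levels per length (TPM) of the alpha-tubulin genes (left) and beta-tubulin genes (right) in the untreated (CON) and PKCi library, stacked by gene; there is 1 library per group and no error bar, and genes under 1 TPM untreated are not drawn. The alpha total was 4431 and 3476 TPM and the beta total 3718 and 3149 TPM, while the segments of Tuba1a and Tubb2a were larger with PKCi.

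All alpha- and beta-tubulin genes together summed to 5783 CPM in CON against 4645 CPM in PKCi (1.25-fold lower, 95% interval 1.23 to 1.26). The median log2 ratio of the 9 measured was −0.32, with 3 at least 2-fold higher and 1 lower, and with no filter on low values it was −0.011, as genes with few counts entered. Tubg1, the gamma-tubulin that nucleates microtubules, was at 106 and 70.5 CPM (1.5-fold lower, 95% interval 1.39 to 1.62). Tubd1 and Tube1, the delta and epsilon chains of centrioles, were at 11.0 and 5.97 CPM (1.84-fold lower) and at 9.70 and 7.09 CPM (1.37-fold lower). Stmn1, the stathmin that binds tubulin dimers and destabilises microtubules, was at 217 and 156 CPM (1.38-fold lower, 95% interval 1.31 to 1.46), with 16.6% of its windows shared with another gene. Stmn2, Stmn3 and Stmn4, its neuronal relatives, had at most 1 count. Of 13 measured tubulin folding cofactors and of 9 genes of the gamma-tubulin ring complex, 0 were at least 2-fold apart, with medians of −0.20 and −0.19. In lists this short 0 is near the background of 6.46% higher and 5.36% lower. The cofactor gene Tbcel was at 24.6 and 42.8 CPM, Arl2 at 49.7 and 33.7 CPM and Pfdn2 at 48.0 and 32.9 CPM. In the ring complex Tubgcp2 was at 81.0 and 52.9 CPM, Tubgcp3 at 66.4 and 51.0 CPM and Cdk5rap2 at 142 and 112 CPM.

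Subunits of dynein-1, the cytoplasmic minus-end motor, were higher in the PKCi library. Dync1h1, the heavy chain that holds the motor, was at 573 and 885 CPM (1.55-fold higher, 95% interval 1.51 to 1.59). Its gene (ENSMUSG00000018707) lies on the plus strand of chromosome 12, 110601452 to 110666945. The intermediate chain gene Dync1i2 was at 116 and 153 CPM (1.32-fold higher, 95% interval 1.24 to 1.40), and its neuronal relative Dync1i1 had 0 counts. Of the light intermediate chains, which bind cargo adaptors, Dync1li2 was at 99.9 and 146 CPM (1.46-fold higher, 95% interval 1.37 to 1.56) and Dync1li1 at 93.9 and 98.7 CPM (1.05-fold, 95% interval 0.979 to 1.13). All 4 measured subunits were above 0, as were 48.5% of measured protein-coding genes, with a median log2 ratio of 0.47.

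The dynein light chains lay on both sides of 0. Of 8 measured, 3 were above 0 and 5 below, near the 51.5% of protein-coding genes below 0, with a median of −0.17. The 8 include 4 Dynlt1 genes that share sequence and are not independent. Dynll1 and Dynll2, small hub proteins that also bind many other partners, were at 179 and 148 CPM and at 178 and 142 CPM (1.21-fold and 1.25-fold lower). Dynlrb1, the roadblock chain, was at 60.2 and 73.5 CPM and Dynlt3 at 34.4 and 50.5 CPM (1.22-fold and 1.47-fold higher). The 4 Dynlt1 genes share 35.6% to 80.9% of their windows of 150 bases with another gene and were summed, to 43.6 and 36.5 CPM (1.20-fold lower, 95% interval 1.07 to 1.34). Over the 12 measured dynein-1 and light chain genes the median was 0.04.

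Dync2h1, the heavy chain of the dynein that returns cargo along cilia, was at 18.6 and 51.7 CPM (2.77-fold higher, 95% interval 2.43 to 3.18), the largest fold of the dynein genes measured. Its count ratio to Dync1h1 was 1.79-fold higher with PKCi (95% interval 1.57 to 2.05). The light intermediate chain gene Dync2li1 had 11 and 8 counts. The intraflagellar transport list holds genes of the ciliary cargo trains and the dynein-2 intermediate chain genes Wdr60 and Wdr34. Of its 20 measured genes 0 were at least 2-fold apart, and their median was −0.19. Above 0 lay 8 and below it 12, where 51.5% of measured protein-coding genes were below. Unlike Dync2h1, Wdr60 (20.6 and 16.6 CPM) and Wdr34 (24.5 and 19.2 CPM), named after their values were seen, were lower. Ift43, Ift140 and Ift122, members of the complex that moves with dynein-2, were at 10.9 and 20.8, 21.1 and 37.6, and 21.9 and 35.7 CPM. Wdr35 (73.7 and 46.2 CPM) and Ttc21b (53.4 and 46.2 CPM) of the same complex, named after their values were seen, were lower. Of the 12 dynactin genes, partners of dynein-1, 0 were at least 2-fold apart, with a median of 0.16. Dctn4 was at 73.6 and 113 CPM, Dctn2 at 131 and 180 CPM and Actr10 at 117 and 89.7 CPM. Of 15 measured dynein adaptors and regulators 0 were at least 2-fold apart, with a median of 0.09. In lists as short as these, 0 is near the background of 6.46% higher and 5.36% lower, and it is not read as a result. The adaptor genes Hook2 (26.6 and 53.6 CPM) and Hook1 (50.3 and 28.9 CPM) lay on opposite sides of 0, and Trak2, a mitochondrial adaptor, was at 66.3 and 99.7 CPM.

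**Figure D4:**
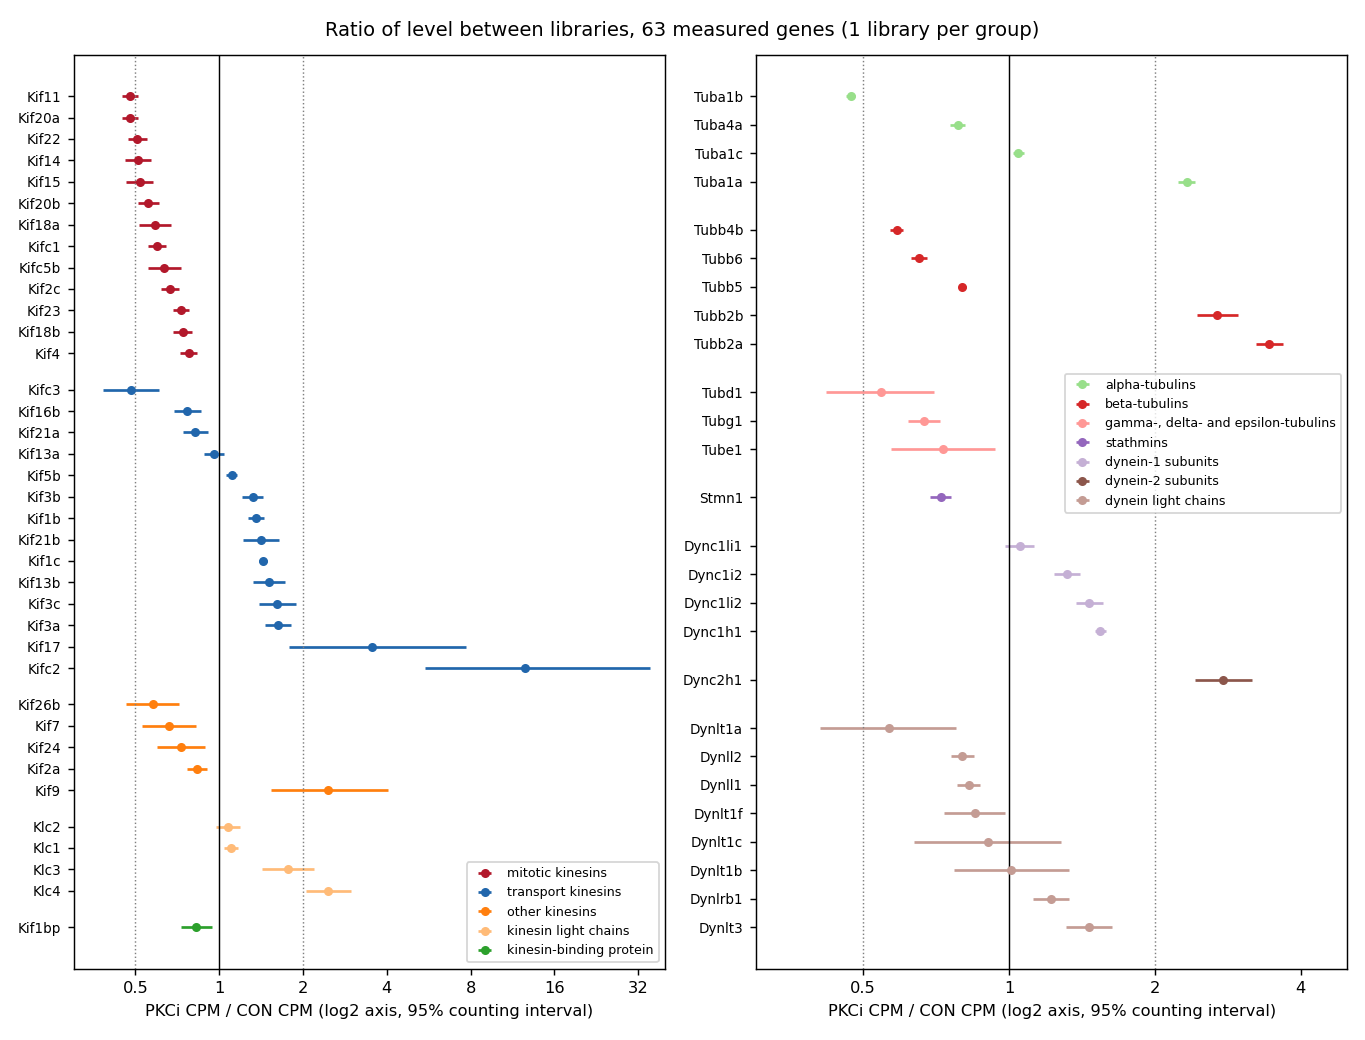
Ratio of PKCi to CON level for each of the 63 measured genes on a log2 axis, by family, with 95% counting intervals (1 library per group); dotted lines mark 2-fold. All 13 mitotic kinesins lie left of 1, and Tuba1a, Tubb2a, Tubb2b, Dync2h1, Klc4, Kif17 and Kifc2 lie to the right of 2-fold, as does Kif9 (2.46-fold), which with 1 CPM added falls short of it.

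**Figure D5:**
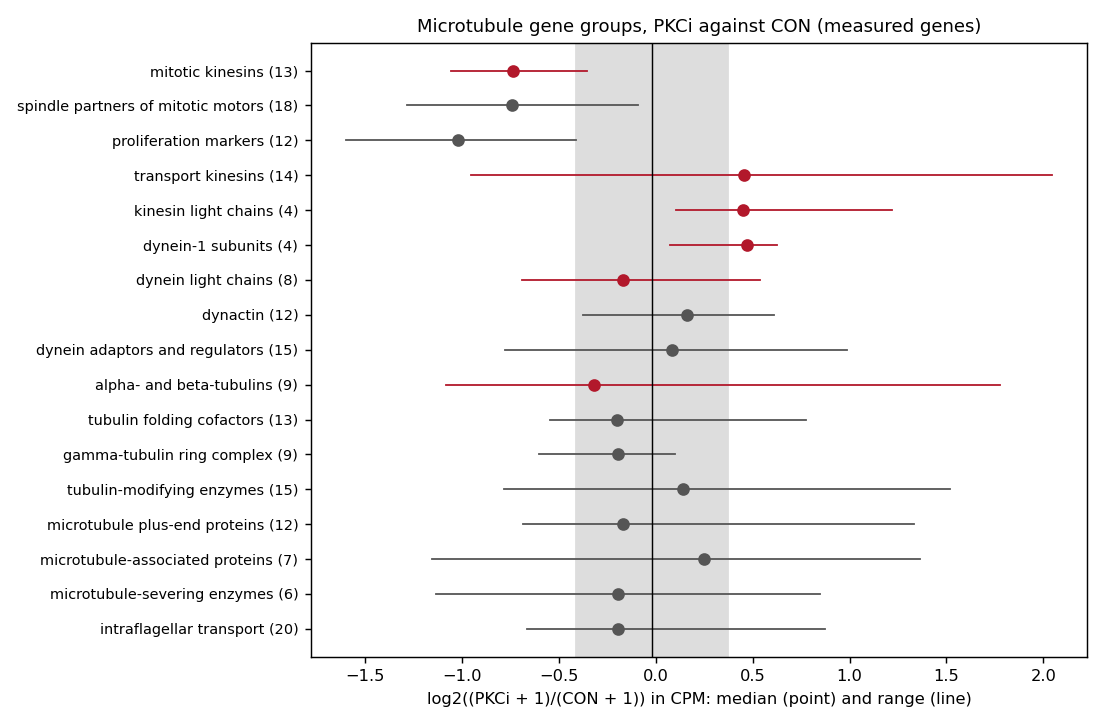
Median (point) and range (line) of the log2 ratio in families of the genes described (red) and in listed partner groups (grey), with the number measured in brackets; the grey band spans the quartiles of all measured protein-coding genes and the black line their median. The medians of mitotic kinesins (−0.74), spindle partners (−0.74) and proliferation markers (−1.02) lie below the band, and those of transport kinesins (0.46), kinesin light chains (0.45) and dynein-1 subunits (0.47) lie above it. Without Kif17 and Kifc2, which reached 1 CPM only with PKCi, the transport median was 0.41.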

How the data were processed

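RNA of 2 CMT167R cultures, 1 per group, was sequenced, grouped by the labelled treatment. The labels' descriptions name a stranded TruSeq mRNA kit and paired reads, while another protocol in the labels names a different TruSeq kit and retinas. The submitters' processing notes name HISAT2 2.0.5 and the builds GRCm38 and mm10. The counting program, its strand setting and the annotation release were not given in the sources used here. Values as deposited by the authors were whole-number counts per gene in a table named for FPKM, and since every value is whole and the columns sum to 16090186 and 16071153, they were taken as raw counts, as the planned design allowed for. Gene lengths were used as deposited. No column was left unassigned. Of the 86 genes, 81 have the same coordinates in GENCODE M21.

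Counts were scaled to the library total (CPM), a pseudocount of 1 CPM was added for log2 ratios, and protein-coding genes that reached 1 CPM in either library were kept. TPM was computed here from the deposited lengths. Intervals of folds are exact conditional binomial (Clopper-Pearson, 95%), those of count ratios normal approximations on the log scale. Both cover counting error only, since each group held 1 library. The reads carried no stated molecular identifiers, so duplicate reads could be counted as separate and the intervals may be too narrow. The steps were tested on simulated data. Shared windows were found in GENCODE M21 transcripts, and promoters were taken from RefSeq. Python 3.11.15, scipy 1.17.1 and, for 1 alternative scaling, edgeR 4.0.16 were used. Genes at 5 CPM or more, or 1.5-fold apart, could be named, and of each partner list the 3 furthest from 0 with at least 5 CPM. Some overlapping and marker genes are not reported here. Members and lists were chosen with earlier results of these data known.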

Additional observations from a re-analysis of the deposited data

How the results depend on the processing

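The alternatives tried were 4 other scalings (TMM, median of ratios, a protein-coding total without the 10 most abundant genes, and TPM), pseudocounts of 0.5 and 0.1 CPM, and 3 other filters. The scalings shifted the median log2 ratio of all measured protein-coding genes by at most 0.03. The mitotic kinesin median ranged from −0.76 to −0.71, the transport median from 0.32 (ratio of summed counts) to 0.48, and their difference from −1.23 to −1.13, the last with every other kinesin joined to the transport list. From the summed counts, an alternative chosen after seeing the data, that difference was −1.07. The median of alpha- and beta-tubulins was −0.011 with no filter on low values, where genes with few counts enter, and −0.33 to −0.29 otherwise. The dynein median stayed between 0.03 and 0.07. The count of genes at least 2-fold higher was 5 to 8, and of those at least 2-fold lower 3 or 4. Kif17 was under 2-fold with TPM (0.88), and Kif9 (1.08 and 1.25 with pseudocounts of 0.5 and 0.1) and Kifc3 (−1.04 with 0.1) passed 2-fold. Of 372 values recomputed for 62 named genes, 0 changed sign. No paired analysis was possible because each group held 1 library. Depth limits the genes with few counts, such as Kifc2, Kif17 and Kif9, whose intervals are wide.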

Other observations

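Other genes that act on microtubules lay on both sides of 0, and the counts below are read against 6.46% of protein-coding genes at least 2-fold higher and 5.36% lower. With lists this short, no count is read as a result about a list. Of 12 measured plus-end proteins 1 passed 2-fold, upwards, and the median log2 ratio was −0.17. Clip2, a plus-end tracking protein, was at 37.6 and 96.3 CPM (2.56-fold higher, 95% interval 2.33 to 2.82). The giant linkers of microtubules and actin, Dst (409 and 811 CPM) and Macf1 (321 and 560 CPM), were 1.98-fold and 1.74-fold higher. Of 7 measured microtubule-associated proteins 1 was at least 2-fold higher and 2 lower. Map6, which stabilises cold-resistant microtubules, was at 7.33 and 20.5 CPM, Map2, a dendritic protein in neurons, at 21.4 and 9.33 CPM, and Mtus1 at 14.0 and 5.72 CPM.

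Of 15 measured tubulin-modifying enzymes 1 was at least 2-fold apart: Atat1, which acetylates alpha-tubulin inside the microtubule, was at 8.33 and 25.8 CPM (3.09-fold higher, 95% interval 2.54 to 3.79). Ttll12, a member of the tyrosine ligase-like family, was at 163 and 94.1 CPM and Tpgs2, a subunit of a polyglutamylase, was 1.74-fold lower. Among 6 measured severing enzymes, Fignl1, which is also known for a role in recombination, was at 139 and 62.9 CPM (2.21-fold lower, 95% interval 2.05 to 2.39). Katnal1 was at 14.8 and 27.4 CPM and Katnal2 at 10.4 and 6.04 CPM. With 1 library per group these are values of these libraries only.

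Markers of other cell types were low. Of 8 leukocyte markers 5, Ptprc included, had 0 counts in both libraries, and the 8 summed to 10.6 and 6.72 CPM, with Lyz2 at 8.27 and 3.11 CPM. The 9 fibroblast and endothelial markers summed to 12.4 and 12.1 CPM, with Col1a1 at 8.89 and 4.36 CPM and Pdgfra at 2.67 and 6.04 CPM. The epithelial marker Epcam was at 3.48 and 6.28 CPM.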
